A study of Mus musculus with 4 samples.

Results

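Immediate early genes and heat-shock genes were followed as 32 named genes of the 27998 in the deposited expression tables, across the immune cells of 1 healthy mouse brain sample and 3 samples of brains bearing a glioma. The 32 genes were matched by symbol and all of them were in the tables. They comprise 24 early-response genes, counting the stress gene Gadd45b with 23 immediate early genes, and 8 heat-shock genes. Immediate early genes are transcribed within minutes of a stimulus, without new protein synthesis, because the factors that switch them on are already present in the resting cell. Most encode transcription factors (AP-1 subunits, EGR, KLF and NR4A proteins), and others encode phosphatases and RNA-binding proteins that end the same signals. Heat-shock genes encode chaperones that refold damaged protein, and some of them rise sharply when heat shock factor 1 is released. Both classes are known to respond when brain tissue is digested with warm enzymes, and microglia, the resident macrophages of the brain, are known for it.

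Each of the 4 groups was 1 library of droplet-captured cells, read by the 3′ ends of their transcripts and counted as unique molecular identifiers (UMIs, 1 for each captured RNA molecule). The healthy brain came from C57BL/6 mice that received no tumor, and their age is not given in the sources used here. The other groups were C57BL/6J mice of 8 to 12 weeks with cells of the mouse glioma line 005 injected into the hippocampus. From day 7 they received either rat IgG2a isotype control antibody (clone LTF-2), an antibody against the T cell checkpoint CTLA-4 (9H10), or that antibody together with one that depletes CD4+ cells (GK1.5). At day 35 the tumors of 3 mice were pooled for each library. Every library, healthy brain included, went through PBS perfusion, a papain-based kit with type I collagenase and mechanical dissociation, red cell lysis, Percoll separation and sorting of 4 CD45+ fractions that were pooled at equal ratios, so cell shares were set by the sort and barcodes carry no fraction. No undissociated tissue and no library made with a transcription inhibitor was analysed here, so RNA made in the brain and RNA made during dissociation cannot be told apart in any value below. With 1 library a group, the condition and the library cannot be told apart either.

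The libraries held 1420, 1484, 1874 and 3916 barcodes with 7950206 to 21471565 UMIs, and 8291 cells were kept in all, with medians of 4359 to 5853 UMIs a cell. Between 1 and 9 barcodes of a library also occurred in another library. Cells were assigned to lineages from distinct detected marker genes, and 88.0% of kept cells received one. Microglia numbered 781, 221, 194 and 422 cells. Here and below 4 values in a row are those of healthy brain, the IgG library, the anti-CTLA-4 library and the library with added CD4 depletion. Monocytes and macrophages numbered 98, 312, 334 and 859, neutrophils 173, 31, 35 and 365, T cells 142, 390, 531 and 1146, and B cells 112, 69, 195 and 132. NK cells numbered 4 in healthy brain, too few to use, and 158, 347 and 247 in the tumor libraries. Each of these lineages had 4 to 8 of its own markers among its top 10 genes by fold against the other lineages, and none had more than 1 marker of another. The cells were assigned by these same markers, so this describes the groups and does not test the assignment. Only 10 cells were classed as dendritic or plasmacytoid dendritic cells, so those are not described. Levels are given as CPM, a gene's UMIs per 1000000 UMIs of the same lineage and library, and are compared only within a gene.

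The promoters of the 2 classes differ in their letters, and the stretches below show the elements through which each class is known to be switched on. RefSeq sequences (build GRCm38.p6) from 250 bases before to 50 after each start were at hand for 27 of the 32 genes. A gene can have several such windows, 1 for each listed start, and was counted as holding an element if any window did. Egr1, Egr3, Ier2, Hsp90aa1 and Hspa8 are named only. Capitals mark the element, and each line runs 5′ to 3′ on the gene's strand. Shown are stretches that lie wholly before the gene's annotated span. The first 3 carry a heat shock element, searched as GAANNTTC or TTCNNGAA, each of which reads the same on both strands. Dusp5 carries 2 CArG boxes, the element bound by serum response factor. Btg2 carries the cyclic AMP response element TGACGTCA.
Hspa1a, minus strand, chr17:34972238-34972275: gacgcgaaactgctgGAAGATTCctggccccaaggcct
Hspa1b, minus strand, chr17:34959320-34959357: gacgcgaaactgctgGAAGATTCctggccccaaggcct
Hspe1, plus strand, chr1:55088044-55088091: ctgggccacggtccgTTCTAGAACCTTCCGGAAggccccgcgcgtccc
Dusp5, plus strand, chr19:53529048-53529097: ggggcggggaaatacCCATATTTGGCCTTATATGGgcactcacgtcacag
Btg2, minus strand, chr1:134079299-134079336: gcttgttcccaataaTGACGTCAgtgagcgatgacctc

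A heat shock element of either form was present in 5 of the 6 heat-shock genes with a window (83.3%: Hspa1a, Hspa1b, Dnaja1, Hsph1 and Hspe1), in 2 of 21 early genes (9.52%, Jun and Egr2) and in 17.0% of all 27025 genes. Dnajb1 had none. Hspe1 held 3 overlapping matches in 1 run. The CArG box was present in 3 of the 21 early genes (14.3%, Egr2, Dusp5 and Zfp36), against 1.81% of all genes, and in none of the 6 heat-shock genes. The cyclic AMP response element stood in 2 of 21 early genes (9.52%, Dusp1 and Btg2), against 2.03% of all genes. The AP-1 site TGANTCA was in no window of the 27 genes, against 8.97% of genes. Hspa1a and Hspa1b, 2 neighbouring copies of the inducible Hsp70 gene, had 247 of 250 upstream bases in common. Reads of such near-identical copies can be split between them, so their separate counts are uncertain, and the level of their sum is given where a result turns on either.

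The early genes, summed, took the largest share of UMIs in neutrophils, the short-lived granulocytes of blood and marrow. The neutrophil sum was 5730.0 CPM in healthy brain, 10898 in IgG, 9315 in anti-CTLA-4 and 8772 in the depletion library. In microglia it was 4967, 2438, 2895 and 2330.4 CPM. Neutrophils were thus above microglia in every library, and by CPM the healthy brain was the highest of the 4 microglia libraries and the lowest of the neutrophil ones. The neutrophil order was not kept after each cell was thinned to 1000 UMIs. Healthy neutrophils then had a mean of 10.4 early UMIs a cell, above anti-CTLA-4 (10.1) and depletion (9.49) and below IgG only. Healthy brain stayed the highest of the microglia libraries. Monocytes and macrophages had 3801, 4504, 4033 and 3495 CPM, T cells 2856, 3719, 3842 and 3039, and B cells 5336, 5775, 3083 and 4632. NK cells had 4924, 4295 and 4273 CPM in the tumor libraries. The neutrophil range lay above those of all other lineages except B cells, which it overlapped by the healthy brain value, and the ranges of the other 5 lineages overlapped except that every NK value was above every T cell value. Btg1, an antiproliferative gene expressed at rest in lymphocytes, made up 1561 of the 3842 CPM in T cells of the anti-CTLA-4 library and 1036 of the 4967 CPM in healthy microglia. Without it the neutrophil sums were 4251 to 7511 CPM and the T cell sums 1285 to 2281.

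**Figure D1:**
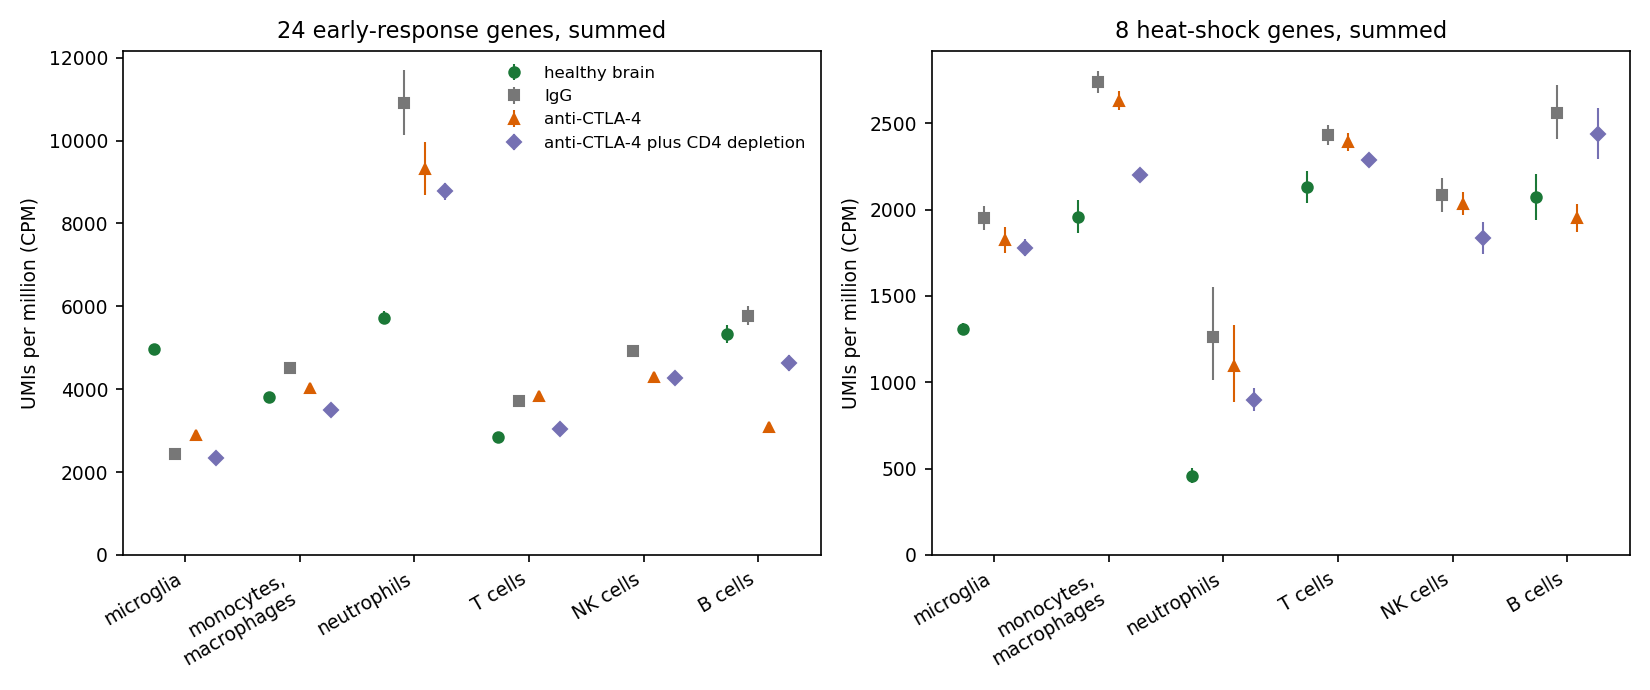
Summed level of the 24 early-response genes (left) and the 8 heat-shock genes (right) in CPM, by lineage on the horizontal axis and library by color and symbol. Bars are exact 95% Poisson intervals and cover counting error only. Neutrophils are highest for the early sum (5730.0 to 10898 CPM) and lowest for the heat-shock sum (457 to 1261 CPM), and healthy microglia stand above tumor microglia on the left and below them on the right.

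The heat-shock sum ordered the lineages differently. It was lowest in neutrophils, with 457, 1261, 1093 and 897 CPM, below every value of every other lineage. Microglia had 1307, 1949.9, 1823 and 1778 CPM, with healthy brain the lowest. Monocytes and macrophages (1956 to 2738 CPM), T cells (2129.7 to 2432), B cells (1949 to 2561) and NK cells (1835 to 2083) overlapped, except that every NK value was below every T cell value. Hspa8, the constitutive Hsc70 chaperone, was the largest contributor, with 1873 of the 2738 CPM in monocytes and macrophages of the IgG library. Over the 23 sums of a lineage in a library, the early and heat-shock sums had a Pearson r of -0.50 on the log2 scale. This is a description, since the points share libraries and lineages. The genes whose level went most like the heat-shock sum over those 23 sums were Eef2 (r = 0.93), Gnb2l1 (0.93), Eef1a1 (0.93), the chaperonin subunit Cct2 (0.93), Npm1 (0.93) and Epb41l4aos (0.93). For the early sum they were Gsk3a (0.87), Slc38a2 (0.86), Midn (0.86), Pet100 (0.84), Hist1h1c (0.83) and Tle3 (0.82), from 2654 genes considered.

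Lineages were compared over the 4 libraries with edgeR's quasi-likelihood test, with the library as a block and Benjamini-Hochberg adjustment over 10058 genes, and a gene was called at an adjusted p under 0.05. The library block takes out what all lineages of a library share. The 4 libraries are of different conditions, so the p-values measure how lineage differences vary between these libraries, condition included. Of the 32 genes 31 could be tested. Egr3, with at most 1 UMI in any lineage and library, could not.

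Most early genes were lower in microglia than in monocytes and macrophages. Of 31 members, 2 were higher in microglia and 16 lower than in monocytes and macrophages, where 23.3% of all genes tested were higher and 24.6% lower. The median log2 fold was -1.56 over the 23 early genes tested, -0.35 over the 8 heat-shock genes and 0.01 over all genes. By library totals alone, which moved the median of all genes by 0.31 on the log2 scale, 3 members were higher and 14 lower, and higher calls rose from 48.6% to 66.8% of all calls. By DESeq2, with a shift of 0.20, 3 were higher and 15 lower, and 61.6% of all calls were higher.

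The largest differences were in feedback phosphatases and nuclear receptors. Dusp5, a nuclear phosphatase that dephosphorylates ERK kinases, had 0, 1.81, 0 and 1.10 CPM in microglia against 38.2, 35.4, 39.6 and 24 in monocytes and macrophages. The groups did not overlap, and the log2 fold was -5.77 ± 0.63 (SE, adjusted p = 2e-07). Nr4a1, an orphan nuclear receptor that limits inflammatory genes, had 0.979, 1.81, 2.57 and 7.00 CPM in microglia against 202, 68.6, 68.0 and 31.8. Its log2 fold was -5.04 ± 0.66 (adjusted p = 2.2e-06). Its relatives Nr4a2 (-3.53 ± 0.70) and Nr4a3 (-2.85 ± 0.68) were lower too, from levels of at most 4.43 CPM in either lineage.

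Klf4, a zinc finger factor of the monocyte lineage, had 24.7, 9.03, 6.85 and 26.2 CPM in microglia against 405, 102, 79.7 and 90.2 (log2 fold -3.34 ± 0.52, adjusted p = 1.7e-05). Healthy monocytes and macrophages were the highest of these sums. Dusp2, a phosphatase of activated leukocytes, was lower in microglia in all 4 libraries (log2 fold -3.18 ± 0.54), as was Atf3, a stress-induced repressor that pairs with Jun (-2.51 ± 0.43). Ier2, Dusp1, Gadd45b, Ier3, Fos, Egr2 and Btg1 were the other early genes called lower. The call for Fos was lost without the anti-CTLA-4 or the depletion library (log2 fold -1.44 and -1.45), that for Ier3 without IgG or anti-CTLA-4 (-1.29 and -1.03), and that for Egr2 without any one of IgG, anti-CTLA-4 and depletion (-1.29 to -1.76).

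Egr1, a zinc finger factor induced through ERK signalling, went the other way. It had 118, 55.4, 44.5 and 51.9 CPM in microglia against 5.97, 29.1, 7.74 and 27.1, with no overlap between the lineages (log2 fold 1.78 ± 0.40, adjusted p = 0.00092). Ier5, which binds heat shock factor 1, was also higher (0.55 ± 0.23, adjusted p = 0.049), but the call was lost without healthy brain, anti-CTLA-4 or depletion. Jun had more CPM in microglia in 4 of 4 libraries without passing the test (0.85 ± 0.48, adjusted p = 0.15), and without healthy brain its log2 fold was -0.19. Among heat-shock genes Hspa8 (-1.29 ± 0.19) and the Hsp40 co-chaperone Dnaja1 (-0.61 ± 0.15) were lower in microglia and 6 did not pass.

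**Figure D2:**
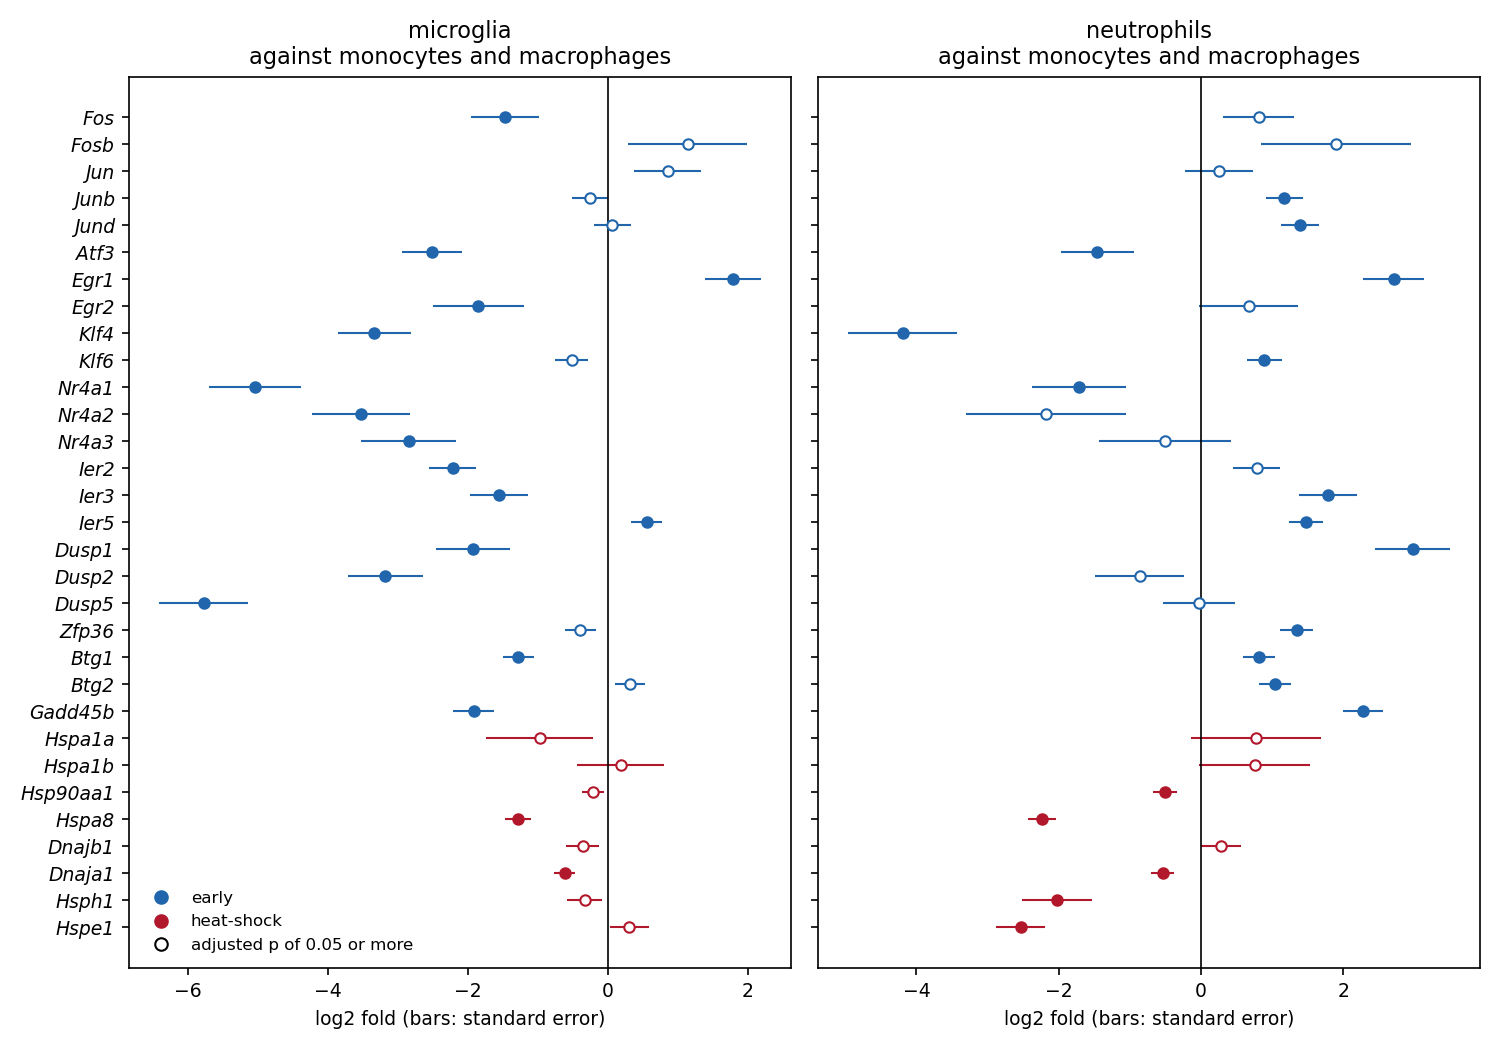
Log2 fold of each tested member in microglia (left) and neutrophils (right) against monocytes and macrophages, over 4 libraries, with standard errors as bars. Filled points passed an adjusted p of 0.05, with early genes in blue and heat-shock genes in red. On the right 11 early genes and no heat-shock gene are filled to the right of 0, and 5 heat-shock genes are filled to the left.

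In neutrophils the classes parted. Against monocytes and macrophages, 11 early genes were higher and 3 lower of 23, while 0 heat-shock genes were higher and 5 lower of 8. Over all genes 13.2% were higher and 20.8% lower. The phosphatase gene Dusp1, which shuts down p38 and JNK signalling, had 366, 468, 484 and 629 CPM in neutrophils against 39.4, 81.5, 47.9 and 84.3. Every neutrophil value was above every monocyte and macrophage value (log2 fold 2.97 ± 0.52, adjusted p = 0.00014). Egr1 had 35.3, 283, 113 and 181 CPM in neutrophils, the lowest of them in healthy brain (2.71 ± 0.43, adjusted p = 5.1e-05).

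Gadd45b, which acts upstream of p38, had 59.6, 298, 507 and 185 CPM in neutrophils (2.27 ± 0.29). Ier3, a survival gene, had 62.6, 482, 653 and 824 (1.78 ± 0.41). Ier5 (1.47 ± 0.24) and Jund (1.39 ± 0.27) completed the largest 6. Zfp36, whose protein destabilizes cytokine mRNA, had 603, 581, 709.6 and 459.9 CPM against 258, 253, 229 and 166 (1.34 ± 0.23), so each neutrophil library was above each library of the other lineage. Junb, Btg2, Klf6 and Btg1 were also higher, the last not without the depletion library (0.72). Klf4 (-4.19 ± 0.76), Nr4a1 (-1.72 ± 0.66) and Atf3 (-1.46 ± 0.51) were lower. The call for Nr4a1 was lost without any one library (-1.01 to -1.94), and that for Atf3 without IgG, anti-CTLA-4 or depletion (-1.04 to -1.38).

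The chaperones lower in neutrophils were Hspe1, the mitochondrial Hsp10, with 6.06, 56.7, 78.8 and 93.0 CPM against 177, 306, 318 and 294 (log2 fold -2.53 ± 0.35), Hspa8 (-2.24 ± 0.20), the Hsp70 exchange factor Hsph1 (-2.02 ± 0.49), Dnaja1 (-0.54 ± 0.16) and Hsp90aa1 (-0.50 ± 0.17). The last pair lost their calls without any one of the IgG, anti-CTLA-4 and depletion libraries. Neutrophils were the shallowest cells, with medians of 1848 to 3322 UMIs and 0.243% to 0.823% mitochondrial UMIs, against 7338 to 9633.5 UMIs and 1.68% to 2.30% in monocytes and macrophages. In cells thinned to 1000 UMIs, 13 members were higher and 4 lower, where 1633 of 5016 genes tested were called and 42.0% of those were higher. The neutrophil sums of the IgG and anti-CTLA-4 libraries held 89 and 97 UMIs of the 8 heat-shock genes, which limits their precision.

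T cells had the lowest median levels of Fos (13.3 CPM) and Jun (53.6 CPM) of the 6 lineages, though NK cells reached lower for Fos in 1 library. Nr4a2, Nr4a3, Dusp2 and Dusp5 had their highest medians in NK cells and the next in T cells, with Dusp2 at 455 and 243 CPM. Egr1 had its lowest median in monocytes and macrophages (17.4 CPM), with T cells next (22.9 CPM) and overlapping. Against T cells, 12 members were higher in microglia and 14 lower, where 27.6% of all genes were higher and 26.7% lower. By library totals alone, with all genes moved by 0.25 on the log2 scale, the split was 12 and 11, and higher calls rose from 50.8% to 63.9% of all calls. Dusp2 had 3.18, 3.61, 4.28 and 4.79 CPM in microglia against 72.7, 227, 307 and 259 in T cells. Every T cell library was above every microglia library, with a log2 fold of -5.92 ± 0.54 (edgeR, adjusted p = 4.2e-09). Dusp5 (-6.54 ± 0.61), Nr4a2 (-5.74 ± 0.60) and Nr4a3 (-5.39 ± 0.56) had like differences, and Nr4a2 was at 0 CPM in microglia of all 3 tumor libraries. Nr4a1 (-2.84 ± 0.68) and Ier2 (-1.49 ± 0.33) were lower too. Jun (2.67 ± 0.50), Zfp36 (2.43 ± 0.24), Ier3 (2.31 ± 0.48), Atf3 (2.25 ± 0.52) and Hspa1a (3.23 ± 1.02) were higher in microglia in 4 of 4 libraries. Hspa1b was higher too (2.20 ± 0.69). Hspa1a and Hspa1b both lost their calls without the anti-CTLA-4 library (2.73 and 1.49). Their sum was 0, 4.52, 2.91 and 13.4 CPM in T cells.

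Monocytes and macrophages had 12 members higher and 8 lower than T cells, against 25.8% and 23.3% of all genes. The largest were Klf4 (5.06 ± 0.59), Atf3 (4.76 ± 0.50), Hspa1a (4.21), Ier3 (3.87 ± 0.48), Fos (3.28 ± 0.53) and Zfp36 (2.83 ± 0.24). Fos had 233, 118, 94.0 and 100.3 CPM in monocytes and macrophages against 14.8, 14.3, 12.2 and 11.1 in T cells, so the lineages lay far apart in every library. Dusp2 (-2.74 ± 0.43), Nr4a3 (-2.54 ± 0.38) and Nr4a2 (-2.21 ± 0.38) were lower, as were Jund (-1.11 ± 0.26) and the chaperones Hsph1 (-1.15 ± 0.23), Hspe1 (-0.80 ± 0.28), Dnaja1 and Hsp90aa1. The Hspe1 call was lost without IgG (-0.90) or anti-CTLA-4 (-0.96), and that for Hsp90aa1 without IgG (-0.38), anti-CTLA-4 (-0.42) or depletion (-0.37).

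NK cells were held by the 3 tumor libraries alone, but the fit that compared them with T cells also included the T cells of healthy brain. One member was higher and 2 lower of 31, where 5.34% of all genes were higher and 5.07% lower. Btg2, an antiproliferative gene, had 332, 333 and 330.5 CPM in NK cells (log2 fold 0.93 ± 0.23, adjusted p = 0.010). Hspe1 (-1.06 ± 0.32) and Hsph1 (-0.94 ± 0.28) were lower. The median log2 fold over the 23 early genes was 0.62, against -0.01 over all genes, though only Btg2 passed. Each of these 3 calls was lost when the IgG or the anti-CTLA-4 library was left out, and those for Hspe1 and Hsph1 without depletion too. Without healthy brain, 6 members were higher and 3 lower, where 1725 of 10060 genes were called and 46.7% of those were higher.

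B cells had 7 members higher and 3 lower than T cells, where 8.48% of all genes were higher and 10.5% lower. Zfp36 (2.19 ± 0.24, adjusted p = 4.7e-07) and Ier5 (1.30 ± 0.23) were higher in 4 of 4 libraries, as were Fosb (3.37 ± 0.81), Fos (2.30 ± 0.58), Jun (1.70 ± 0.49) and Hspa1b (2.84 ± 0.76). Without the IgG library the calls for Fos (1.40), Jun (1.28) and Hspa1b (1.58) were lost. Jun also lost its call without anti-CTLA-4 or depletion, Fosb without depletion, and Gadd45b without healthy brain or depletion. Nr4a3 (-2.60 ± 0.56), Nr4a2 (-2.53 ± 0.56) and Dusp5 (-1.61 ± 0.47) were lower. Those 3 calls were lost without anti-CTLA-4, and that for Dusp5 also without depletion.

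**Figure D3:**
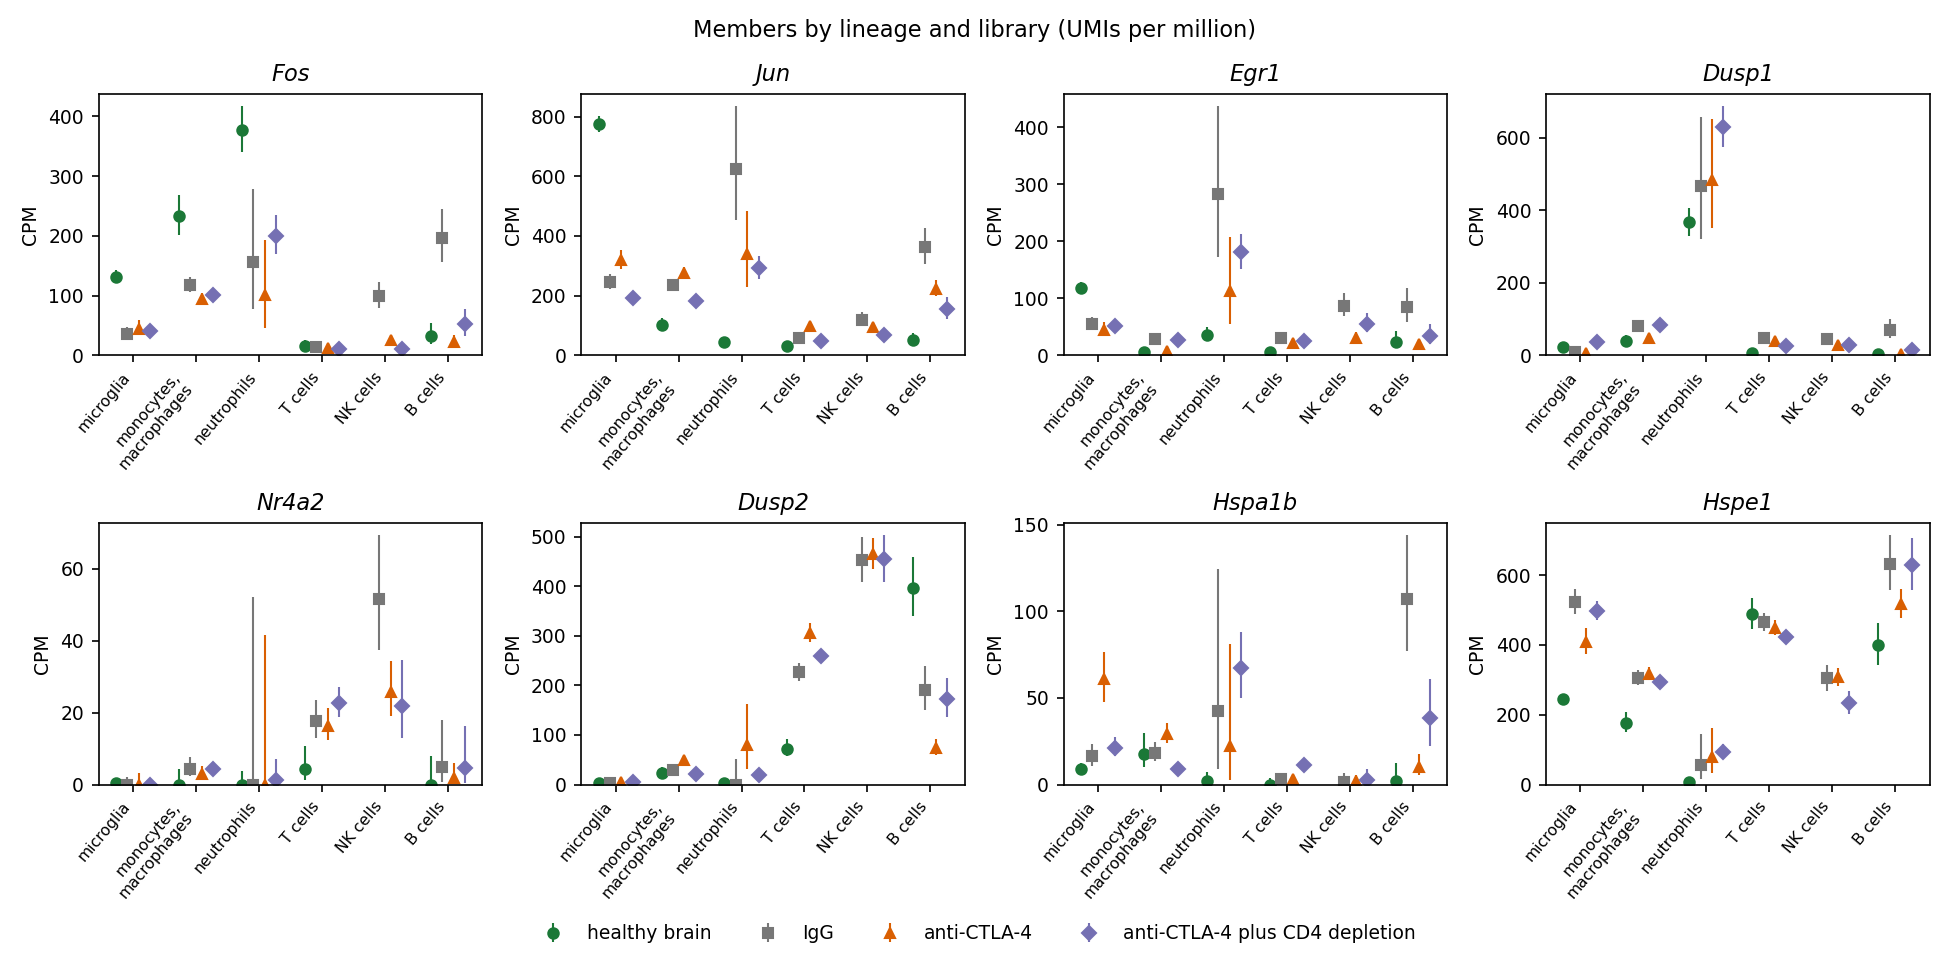
Levels of 8 members in CPM, 1 panel a gene, by lineage and library, with exact 95% Poisson intervals for counting error. NK cells have no healthy brain value, since that library held 4 of them. Jun is 774 CPM in healthy microglia and 45.4 in healthy neutrophils, Dusp1 is highest in neutrophils, and Dusp2 is under 5 CPM in every microglia library.

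The remaining values compare libraries within a lineage. There is 1 library a group, so no test across replicates exists and the intervals cover counting error only. A ratio was counted as past 2-fold when the gene had at least 50 UMIs in the pair and a UMI in at least 10% of the cells of the higher library.

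In microglia the early genes were lower in the IgG tumor library than in healthy brain. Of 23 members measured, 7 were past 2-fold lower and 2 higher, where 6.76% of all genes measured were lower and 3.9% higher. The median log2 ratio was -1.04 over 16 early genes, 0.09 over 7 heat-shock genes and -0.25 over all genes. Scaling by median-of-ratios moved all genes by 0.21. Jun, a core AP-1 subunit, had 774, 246, 320.4 and 191 CPM, and was 3.14-fold lower in IgG than in healthy brain (95% interval 2.84 to 3.49). Fos, its usual partner, had 132, 36.1, 44.5 and 39.8 CPM and was 3.64-fold lower (2.79 to 4.84). All 3 tumor libraries were below healthy brain for both genes.

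The AP-1 subunits did not move as 1 group. Jund had 761, 241, 323 and 205 CPM and was 3.16-fold lower (2.85 to 3.52). Fosb had 44.8, 1.20, 6.00 and 5.16 CPM, a 37.2-fold difference that rests on 2 UMIs in IgG (10.1 to 309). Junb had 515, 366, 395 and 402 CPM and stayed under 2-fold, and Atf3 had 13.9, 21.7, 17.1 and 36.8, with healthy brain the lowest. Btg2 (2.64-fold), Ier5 (2.37-fold) and Egr1 (2.13-fold) were the other genes past 2-fold lower. Egr1 fell under 2-fold when ribosomal and mitochondrial genes were left out of the total (log2 ratio -0.93) or by median-of-ratios (-0.80).

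Ier3 and Hspe1 were higher in IgG microglia. Hspe1 had 244, 524, 409 and 498 CPM, a ratio of 2.15 (1.96 to 2.36), and all 3 tumor libraries were above healthy brain. It was just under 2-fold by the mean of per-cell CPM (log2 ratio 0.92) and the stricter lineage rule (0.94). Ier3 had 16.6, 40.3, 29.1 and 105 CPM (2.43, 1.70 to 3.45), and 0.60 on the log2 scale under the stricter rule. The inducible Hsp70 pair, Hspa1a plus Hspa1b, had 14.2, 19.9, 74.5 and 40.1 CPM. The microglial marker sum was 18347, 6315, 8826 and 5609 CPM and the monocyte and macrophage marker sum in the same cells 117, 346, 243 and 879, with 2, 3, 3 and 0 of 12 markers at 0. Their part in these differences was not tested.

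**Figure D4:**
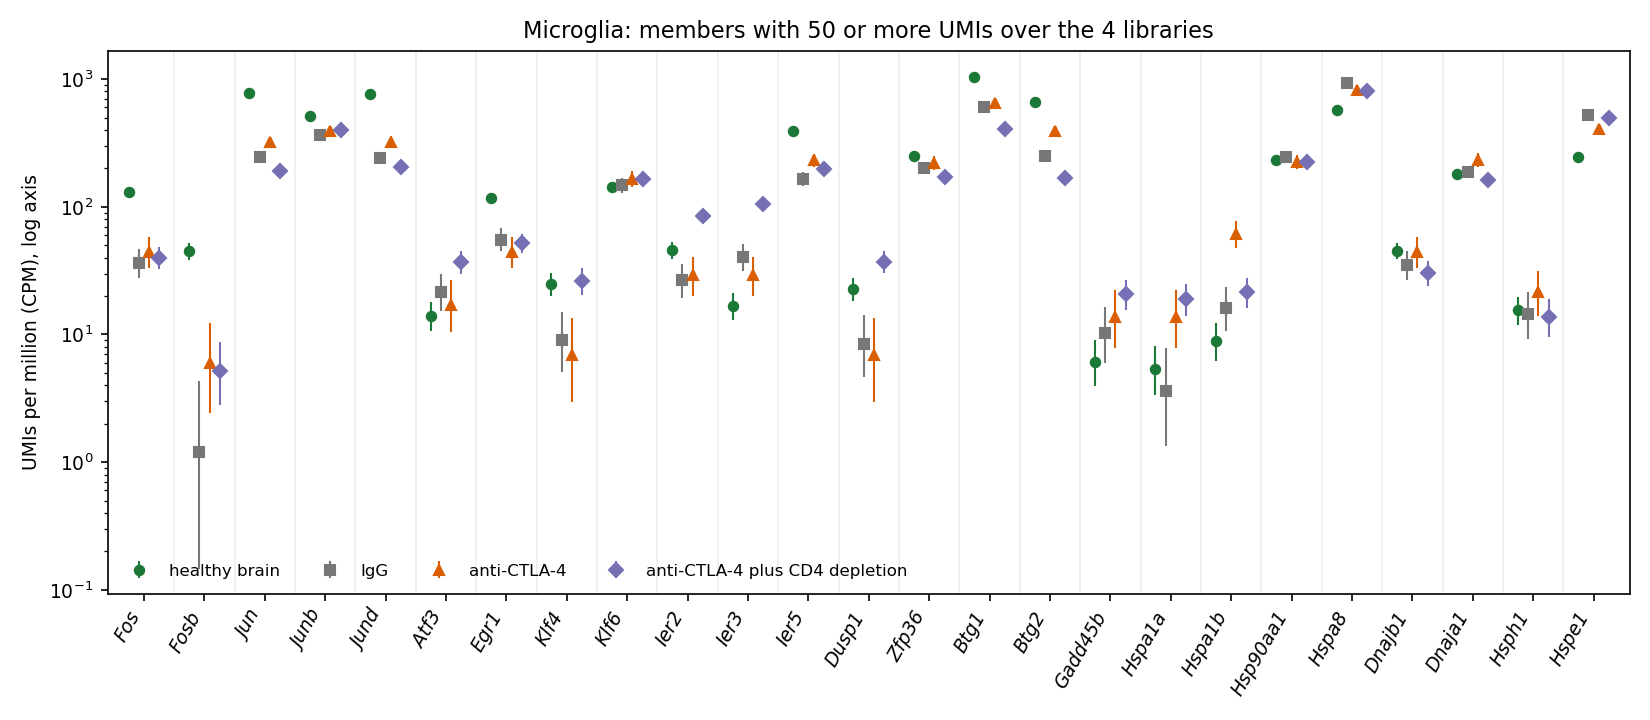
Levels of the 25 members with at least 50 UMIs in microglia, in CPM on a log axis, by library, with exact 95% Poisson intervals. Healthy brain is highest for Fos, Jun, Jund and Btg2 and lowest for Hspe1 and Hspa8.

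The tumor libraries differed less from one another in microglia. Between anti-CTLA-4 and IgG, 1 of 19 members, Hspa1b, was past 2-fold higher (3.74, 2.37 to 6.06) and 0 lower, against 0.52% and 0.927% of all genes. Between depletion and anti-CTLA-4, 4 of 24 members were higher and 2 lower, against 3.03% and 5.39%. Dusp1 (5.43, 2.65 to 12.9), Ier3 (3.59, 2.51 to 5.29), Ier2 (2.91, 2.02 to 4.30) and Atf3 (2.15, 1.32 to 3.67) were higher. Hspa1b (2.85-fold) and Btg2 (2.34-fold) were lower, and the Hsp70 sum went from 74.5 to 40.1 CPM. Dusp1 had 22.8, 8.43, 6.85 and 37.2 CPM, so the depletion library was above healthy brain as well. In thinned cells 1 member was past 2-fold between depletion and anti-CTLA-4. The monocyte and macrophage marker sum given above was higher in depletion than in anti-CTLA-4 microglia. Its part in these differences was not tested.

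Among single microglia the difference was broad. After each cell was thinned to 1000 UMIs, a UMI of Fos, Jun or Egr1 was found in 56.7% of healthy microglia (exact 95% binomial interval 53.1% to 60.2%), 18.7% in IgG (13.6% to 24.6%), 29.5% in anti-CTLA-4 (23.1% to 36.5%) and 23.8% in depletion (19.8% to 28.3%). Unthinned, the shares were 89.9%, 59.7%, 72.2% and 59.5%. Thinning left out 19, 12, 4 and 11 shallower microglia. Neutrophils stood at 50.3%, 51.9%, 48.5% and 40.0%, and T cells at 7.04%, 8.07%, 10.9% and 5.79%. NK cells had 14.9%, 10.1% and 9.24% in the tumor libraries, below T cells with anti-CTLA-4 only. At least 5 of the 24 early genes were seen in 25.2%, 6.70%, 10.5% and 10.7% of thinned microglia and in 64.1%, 66.7%, 66.7% and 55.3% of thinned neutrophils. No lineage here is known to lack these genes, so a background share could not be set.

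**Figure D5:**
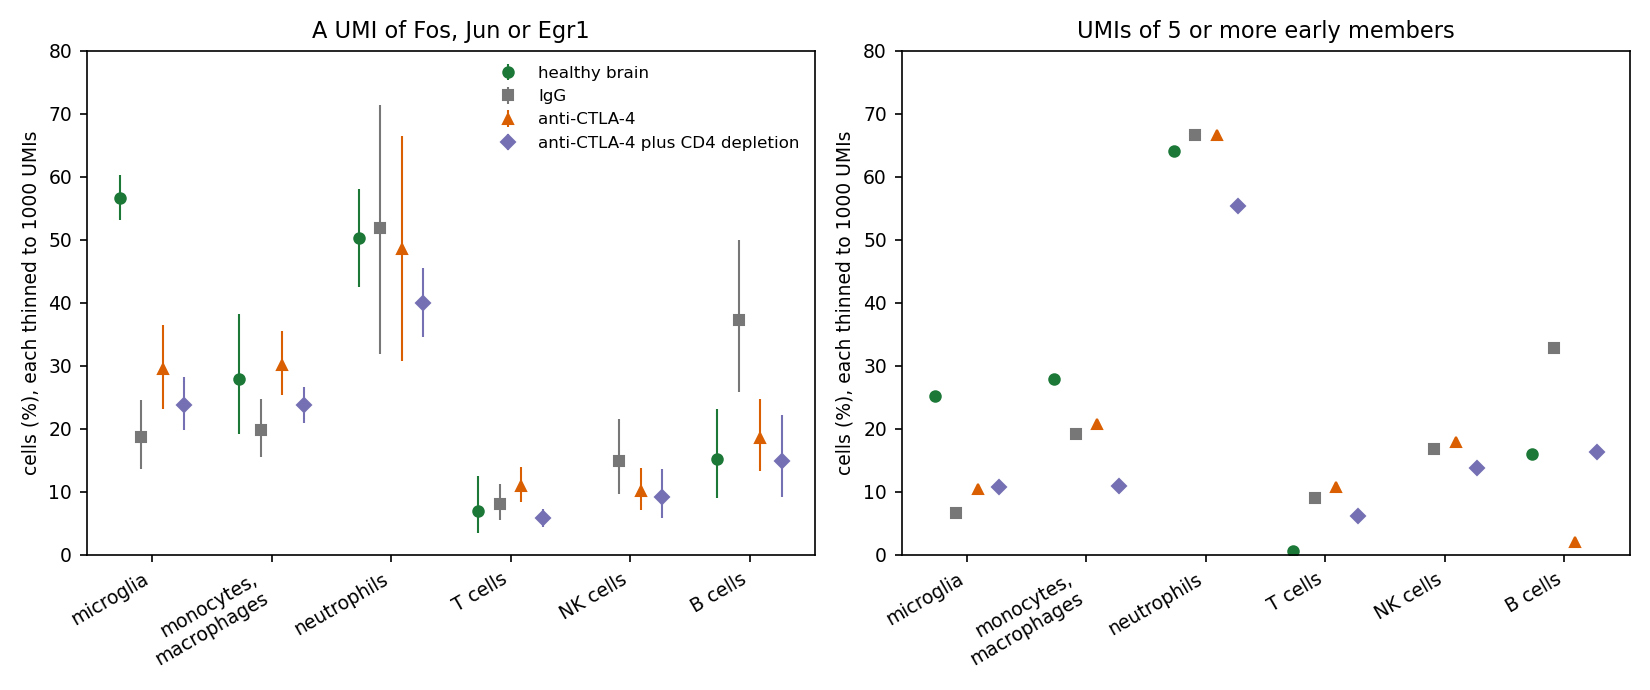
Percent of cells, each thinned to 1000 UMIs, with a UMI of Fos, Jun or Egr1 (exact 95% binomial intervals) and with at least 5 early genes, by lineage and library. Healthy microglia (56.7%) are above the microglia of every tumor library (18.7% to 29.5%), and T cells lie between 5.79% and 10.9%.

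Monocytes and macrophages moved the other way for Jun and Egr1. Between IgG and healthy brain, 5 of 27 members were past 2-fold higher and 2 lower, against 9.65% and 7.62% of all genes. Ier3 had 4.77, 156, 171 and 183 CPM, with 4 UMIs in healthy brain (ratio 32.8, 12.7 to 121). Atf3 had 38.2, 175, 198 and 78.9 CPM (4.58, 3.20 to 6.77). Egr1 (4.88, 2.01 to 15.4, from 5 UMIs in healthy brain), Jun (2.32, 1.84 to 2.94) and Dusp1 (2.07, 1.43 to 3.08) were also higher. In thinned cells Jun had a log2 ratio of -0.17, against 1.17 in whole sums, so its direction was not the same in both. Klf4 (405, 102, 79.7 and 90.2 CPM; 3.98-fold) and Nr4a1 (202, 68.6, 68.0 and 31.8 CPM; 2.94-fold) were lower. Healthy brain gave 98 of these cells.

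Among the tumor libraries, Egr1 in monocytes and macrophages was 3.76-fold lower in anti-CTLA-4 than in IgG (2.40 to 6.06), the 1 member of 28 past 2-fold, where 0.382% of all genes were higher and 0.422% lower. It was 3.50-fold higher in depletion than in anti-CTLA-4 (2.33 to 5.45). The Hsp70 sum in these cells was 40.6, 34.7, 45.3 and 17.9 CPM. In that second pair Hspa1b (3.31-fold), Atf3 (2.52-fold), Dusp2 (2.36-fold) and Nr4a1 (2.14-fold) were lower, against 1.78% of all genes higher and 4.1% lower.

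In T cells 5 of 24 members were past 2-fold higher in IgG than in healthy brain and 0 lower, where 9.97% of all genes were higher and 1.87% lower. Dusp1 had 5.27, 47.1, 38.7 and 24.1 CPM (8.94, 3.73 to 28.0), from 5 UMIs in healthy brain. Dusp5 (5.34, 3.17 to 9.70), Gadd45b (4.95, 2.32 to 12.7), Dusp2 (3.12, 2.43 to 4.06) and Ier2 (2.28, 1.68 to 3.14) followed, and all 3 tumor libraries were above healthy brain for each of the 5. T cells with a CD8 UMI and no Cd4 UMI numbered 60, 81, 155 and 775. In those, 14 members could be measured, and Dusp2 (4.35) and Ier2 (2.55) were past 2-fold higher, against 5.72% of all genes higher and 2.73% lower. Between anti-CTLA-4 and IgG, 0 of 26 members were past 2-fold in all T cells, against 0.131% and 0.105%, and Jun was 3.21-fold higher in the CD8 subset (2.04 to 5.29), where 1.87% of genes were higher and 0.213% lower. Between depletion and anti-CTLA-4, Jun was 2.03-fold lower (1.72 to 2.39), 1 of 27 members, against 0.18% higher and 0.877% lower. In the CD8 subset it was 2.80-fold lower (2.21 to 3.54), 1 of 25, against 0.997% and 1.7%. Without ribosomal and mitochondrial genes in the total, or by median-of-ratios, Jun in all T cells was under 2-fold.

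Neutrophils gave 31 and 35 cells in the IgG and anti-CTLA-4 libraries. Between IgG and healthy brain 8 of 17 members were past 2-fold higher and 1 lower, where 34.1% and 12.9% of all genes were. Jun had 45.4, 624, 338 and 293 CPM (13.7, 8.85 to 21.3), with healthy brain the lowest, and Fos had 378, 156, 101 and 200.3 (2.42-fold lower, 1.34 to 4.89), with healthy brain the highest. Ier3 (ratio 7.70, 4.91 to 11.9), Gadd45b (interval 2.88 to 8.35), Hspa8 (2.88), Ier5 (2.35) and Btg1 (2.29) were also higher. Median-of-ratios moved all genes by -1.07, and under it Ier5, Btg1, Hsp90aa1, Hspa8 and Dnaja1 were under 2-fold (log2 ratios 0.08 to 0.41). The neutrophil marker sum was 81874, 7653, 6668 and 13704 CPM, and 0%, 35.5%, 20% and 19.2% of these cells had only the minimum of 2 markers. Their part in the difference was not tested. Between anti-CTLA-4 and IgG 0 of 12 members were past 2-fold, against 3.1% and 2.13% of genes. In depletion against anti-CTLA-4 neutrophils Ier2 (2.55) and Dnajb1 (2.71, 0.892 to 13.5, an interval that includes 1) were higher and Gadd45b (2.74-fold) lower, of 21 measured, against 13% and 9.13%.

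In NK cells Nr4a2 had 51.7, 25.8 and 21.9 CPM and was just past 2-fold lower in anti-CTLA-4 than in IgG (95% interval of the ratio 1.30 to 3.08), 1 of 24 members, where 0.645% of genes were higher and 0.442% lower. It was at the threshold, which was set on the ratio of CPM. Its log2 ratio of CPM plus 5 was -0.88. That value was -0.24 to -0.87 where other scalings or rules put Nr4a2 under 2-fold. Fos (3.86-fold, 2.68 to 5.64), Egr1 (2.82-fold, 1.97 to 4.07) and Nr4a1 (2.02-fold) were lower in anti-CTLA-4 too. They were not counted, since only 7.59%, 8.23% and 6.96% of IgG NK cells held a UMI of them. In IgG 1 NK cell held 64 of the 85 Fos UMIs. Between depletion and anti-CTLA-4, 0 of 24 were past 2-fold, against 0.319% and 1.6%. Fos was 2.65-fold lower in depletion (1.24 to 6.49), and was not counted, with a UMI in 7.49% of anti-CTLA-4 cells.

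B cells of the IgG library had the highest Fos, Jun and Hspa1b of the 4, and few cells held much of it. Fos had 32.7, 196, 22.8 and 51.6 CPM, Jun 50.2, 363, 224 and 155, and Hspa1b 2.18, 107, 10.1 and 38.2. With Hspa1a the last was 2.18, 152, 10.1 and 40.4 CPM. In IgG, 5 of the 69 cells held 53.2% of the Fos UMIs, 37.0% of the Jun UMIs, 88.2% of the Egr1 UMIs and 95.3% of the Hspa1b UMIs. Against healthy brain, Jun (7.24, 4.64 to 11.8), Fos (interval 3.43 to 11.2), Junb (2.71) and Klf6 (2.06) were higher and Dusp2 (2.07-fold) lower of 15 measured, where 2.96% and 10.8% of genes were. Against IgG, anti-CTLA-4 B cells had 8 of 20 members past 2-fold lower, among them Hspa1b (10.6-fold, 5.47 to 22.0) Fos (8.62-fold, 5.51 to 13.9), Egr1 (4.36-fold), Fosb (3.96-fold), Dusp2 (2.58-fold) and Junb (2.39-fold), and 0 higher, against 1.71% and 1.37%. Against anti-CTLA-4, depletion B cells had Dusp2 (2.33), Fos (2.27) and Gadd45b (2.07) higher and 0 lower, of 18 measured, against 1.54% higher and 2.97% lower. In thinned IgG B cells, early and heat-shock members per cell had a Spearman rho of 0.41 over 67 cells, given as a description.

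Other genes commonly linked to tissue dissociation were read as a separate list. Of 24 tested, 12 were higher in neutrophils than in monocytes and macrophages, led by the chemokines Cxcl2 (5.93 ± 0.79), Ccl4 (3.58 ± 0.78) and Ccl3 (3.42 ± 0.87), and 2 lower (Myc and Cd83), where 13.2% and 20.8% of all genes were, with a median log2 fold of 0.84 against -0.19 over all genes. The neutrophil levels of these chemokines differed widely between libraries. Ccl4 had 2.02 CPM in healthy brain, 1205 in IgG, 1217 in anti-CTLA-4 and 235 in depletion. Cxcl2 had 40.4 CPM in healthy brain, 312 in IgG and 2298 in anti-CTLA-4. In microglia, against monocytes and macrophages, 7 were higher and 8 lower, where 23.3% and 24.6% of all genes were. Between IgG and healthy microglia 3 of 20 were past 2-fold higher (Tnf, Socs3, Nfkbia) and 4 lower (Sgk1, Rhob, Pnrc1, Rgs1), where 3.9% and 6.76% of all genes were. Sgk1, a stress-induced kinase, went from 492 to 135 CPM and Rhob, a small GTPase, from 824 to 264. The depletion library had 5 of 20 past 2-fold higher in microglia than anti-CTLA-4 and 0 lower, with the chemokine Ccl4 at 390.4 against 49.7 CPM. Over all genes 3.03% were higher and 5.39% lower. Of 16 other heat-shock and chaperone genes, 0 were past 2-fold either way between IgG and healthy microglia.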

How the data were processed

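Sorted immune cells of 4 libraries were read with the 10x 3′ assay. The authors deposited UMI counts per gene and cell. Cell Ranger 3.1.0 is named by the file headers and mm10 by the submitters' processing notes. Barcodes needed 200 genes or more, with mitochondrial UMIs no higher than 10%, and doublets were removed with Scrublet (scanpy 1.11.5, expected rate 0.05; top 5% of scores where it called under 0.5%). A lineage needed at least 2 distinct markers and at least 2 times the share of the next list. This scoring rule was set after the counts were seen, and members and lists were chosen with earlier results of these data known. UMIs were summed per lineage and library (at least 20 cells, 23 sums) and tested with edgeR 4.0.16 (R 4.3.3, quasi-likelihood, TMM, filterByExpr, library as block, Benjamini-Hochberg over 10058 genes). DESeq2 1.42.0 was an alternative. Ratios between libraries used conditional exact binomial 95% intervals, which cover counting error only, and log2 ratios of CPM plus 5. All 32 members are accounted for. By rule, those named are up to 6 called members each way in a lineage contrast, those past 2-fold between libraries (the largest 6 where more passed), up to 3 genes each way of another list, and the genes most like each sum. Cell totals of 7950206 to 21471565 UMIs a library set the precision. Promoters are from RefSeq. The genes Cebpd, Trac, Trbc1, Trbc2, Ighd and Ighm were not analysed here. The edgeR step was tested on simulated data.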

Additional observations from a re-analysis of the deposited data

Results flagged for a closer look

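The results below were singled out because a member was past 2-fold one way in 1 lineage and the other way in another between the same libraries. The difference between lineages was not tested, with 1 library a group, and values are log2 ratios of CPM plus 5.

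Between IgG and healthy brain, Fos was -1.73 in microglia and -1.25 in neutrophils but 2.42 in B cells. Jun was -1.63 in microglia and 1.17 in monocytes and macrophages, 3.64 in neutrophils and 2.74 in B cells. Egr1 was -1.03 in microglia and 1.64 in monocytes and macrophages. Ier5 was -1.22 in microglia and 1.22 in neutrophils, and Dusp2 was 1.58 in T cells and -1.03 in B cells. By median-of-ratios, Ier5 in neutrophils and Egr1 in microglia were under 2-fold. In thinned cells Jun in monocytes and macrophages changed sign.

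Between anti-CTLA-4 and IgG, Hspa1b was 1.63 in microglia and -2.89 in B cells, where 5 cells of the IgG library held 95.3% of its UMIs. Between depletion and anti-CTLA-4, Atf3 was 0.92 in microglia and -1.28 in monocytes and macrophages. Dusp2 was -1.07 in monocytes and macrophages and 1.17 in B cells, and Gadd45b was -1.43 in neutrophils and 0.97 in B cells.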

How the results depend on the processing

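Of 2382 comparisons of a member between lineages under an alternative, 2210 kept their call and 116 lost one. Another 55 gained a call and 1 was called in the opposite direction. Members called in neither fit count as kept, whatever their direction. Jun in microglia against monocytes and macrophages is an example, at 0.85, and -0.19 without healthy brain. The 1 member called in the opposite direction was Dusp2 in B against T cells. It was 0.02 and not called in the main fit, and -0.83 and called lower without healthy brain. Without any one of the other libraries it was 0.11 to 0.49 and not called. Of ratios past 2-fold between libraries, 37 fell under it and 17 stayed in thinned cells, where Jun in monocytes and macrophages (IgG against healthy brain) turned to -0.17. By the stricter rule 14 fell and 38 stayed, by median-of-ratios 12 and 52, by per-cell means 11 and 53, without ribosomal and mitochondrial genes 5 and 59, with doublets 3 and 61, and with at least 500 genes a cell 0 and 55. Looser thresholds cannot remove one. A ratio needed at least 30 cells in both libraries. Neutrophil ratios with IgG were therefore not rerun in thinned cells, with 500 genes a cell or by the stricter rule. The IgG library kept 27, 29 and 17 neutrophils there. By the stricter rule those with anti-CTLA-4 (22 neutrophils) were not rerun either. Of 92 checks of a summed level, 50 were counted as moved and 42 as unchanged, with 30 moved and 16 unchanged in thinned cells. The causes were not tested. Main counts called were 26 for microglia against T cells, 3 for NK against T cells and 10 for B against T cells. In thinned cells, which have fewer UMIs, they were 17 for microglia and 5 for B cells. NK against T cells gave 1 by library totals alone, 5 by DESeq2, 9 with no filter on low counts, 0 with no library block, and 0 to 9 when 1 library was left out (0 without IgG or anti-CTLA-4). B against T cells gave 6 to 14 when 1 library was left out. The other lineage counts stayed within 1.5 times.

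Of ratios past 2-fold, IgG against healthy brain gave 9 members in microglia, 7 in monocytes and macrophages and 5 in T cells. In thinned cells these were 5, 3 and 2. At a ratio of 1.5 monocytes and macrophages had 13, and T cells had 12 with at least 20 UMIs and 2 in CD8 cells. Anti-CTLA-4 against IgG gave 1, 1 and 0. Microglia had 2 at a ratio of 1.5, 2 with at least 20 UMIs and 0 thinned. Monocytes and macrophages had 5 at a ratio of 1.5, 0 by the stricter rule and 0 thinned. T cells had 1 at a ratio of 1.5, 1 with at least 20 UMIs and 1 in CD8 cells. Depletion against anti-CTLA-4 gave 6, 5 and 1. Microglia had 10 at a ratio of 1.5 and 1 thinned. Monocytes and macrophages had 10 at a ratio of 1.5, 3 by the stricter rule and 1 thinned. T cells had 0 without ribosomal and mitochondrial genes, by median-of-ratios or thinned, 2 by per-cell means or the stricter rule, and 4 at a ratio of 1.5 or with at least 20 UMIs. The CD8 subset was chosen after seeing the data.

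Depth limits the neutrophils of IgG and anti-CTLA-4 most, with 31 and 35 cells. No paired analysis was possible because each group is 1 library and the groups share only 1 replicate number.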
